A study of Rattus norvegicus with 12 samples.

Results

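The lysosomal cathepsins examined here were the 10 genes Ctsa, Ctsb, Ctsc, Ctsd, Ctse, Ctsh, Ctsk, Ctsl, Ctss and Ctsz, chosen by symbol from the 18337 genes that the array names. Total RNA came from micropunches of the rostral ventrolateral medulla (RVLM), the brainstem region whose neurons drive sympathetic outflow, of males of the inbred F344 rat line: young rats of 3 months, middle-aged rats of 12 months and aged rats of 24 months. Each age had 3 animals, and 1-colour whole-genome arrays measured them. Replicate 3 of each age was hybridised to 2 arrays, which were averaged, so 12 arrays gave 9 animals. The labels name no transgene and no agent other than the isoflurane given to all animals before the brains were taken, and the animals were bought at each age, and a punch holds all the cell types of its site.

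Cathepsins are the proteases of the endolysosome. They are made as inactive proenzymes, travel to acidic compartments mostly by mannose 6-phosphate sorting and mature there by proteolysis, and the cysteine members are held in check by cystatins. In the brain they are abundant in microglia, the resident macrophages, where they degrade engulfed material and trim antigens, and the aspartic and cysteine members also serve protein turnover in neurons.

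The 10 genes were represented by 14 probes of 60 bases, and all 14 were well above background on all 12 arrays. Ctsa had 3 probes, Ctsl and Ctss had 2 each, and the other 7 genes had 1 each. The sequences of the only Ctsz probe, of the second Ctss probe and of the second Ctsl probe are shown because they carry, in turn, a call that rests on a single oligonucleotide, the repeat of a call, and the repeat of a gene with no call.
Ctsz probe: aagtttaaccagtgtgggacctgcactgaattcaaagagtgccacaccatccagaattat
Ctss second probe: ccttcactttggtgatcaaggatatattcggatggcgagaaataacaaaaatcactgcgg
Ctsl second probe: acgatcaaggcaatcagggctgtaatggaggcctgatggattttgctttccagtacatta
The array files place the second Ctss probe at chr2:190429228-190429287 and the second Ctsl probe at chr17:6290718-6290777 on build rn3, without a strand. No position was listed for the Ctsz probe. The only Ctse probe, on which the calls of that gene likewise rest, lies at chr13:44619093-44619152 of the same build. The longest run of bases that any of the 14 probes shared with a probe of another gene was 16 of 60, for Ctsk.

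Promoter sequences from RefSeq (build GRCr8) matched 9 of the 10 genes, all but Ctsb. Those of the 3 genes whose RNA rose are shown with that of Ctsd, the main aspartic protease of lysosomes. Each runs from 250 bases before the gene's start to 50 bases after it. Capitals mark GAGGAA, the core motif of PU.1, a macrophage transcription factor, and TCACGTG, the core of the element that TFEB, the regulator of lysosomal genes, recognises, each on either strand.
Ctse promoter (chr13:45643965-45644264, plus strand): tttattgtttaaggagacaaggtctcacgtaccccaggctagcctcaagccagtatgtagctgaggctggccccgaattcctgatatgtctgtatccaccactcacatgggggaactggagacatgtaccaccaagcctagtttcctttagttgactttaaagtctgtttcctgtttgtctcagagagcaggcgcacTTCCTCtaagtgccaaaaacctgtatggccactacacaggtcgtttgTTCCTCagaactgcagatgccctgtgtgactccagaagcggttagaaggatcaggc
Ctss promoter (chr2:185775146-185775445, plus strand): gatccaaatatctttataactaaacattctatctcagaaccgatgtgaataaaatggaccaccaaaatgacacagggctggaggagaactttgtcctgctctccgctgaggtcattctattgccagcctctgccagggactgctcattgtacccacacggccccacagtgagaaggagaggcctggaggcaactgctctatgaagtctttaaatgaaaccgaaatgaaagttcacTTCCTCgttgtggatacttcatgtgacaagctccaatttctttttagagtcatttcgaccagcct
Ctsz promoter (chr3:183653798-183654097, minus strand): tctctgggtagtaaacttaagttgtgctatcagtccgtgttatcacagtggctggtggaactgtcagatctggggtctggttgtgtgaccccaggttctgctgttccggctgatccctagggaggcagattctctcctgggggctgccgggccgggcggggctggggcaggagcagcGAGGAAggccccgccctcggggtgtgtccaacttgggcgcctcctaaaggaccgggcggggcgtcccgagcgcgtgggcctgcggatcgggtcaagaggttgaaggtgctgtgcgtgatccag
Ctsd promoter (chr1:206968772-206969071, minus strand): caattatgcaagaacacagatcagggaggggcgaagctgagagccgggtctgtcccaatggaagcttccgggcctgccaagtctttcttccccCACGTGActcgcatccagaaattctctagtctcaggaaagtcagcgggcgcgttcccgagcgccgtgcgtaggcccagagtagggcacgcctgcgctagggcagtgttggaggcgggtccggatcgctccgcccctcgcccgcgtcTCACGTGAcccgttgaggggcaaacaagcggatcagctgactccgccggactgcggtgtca
TCACGTG, which contains the E-box CACGTG, was found in the promoter of 1 of the 9 genes, Ctsd, and in 3.20% of 33469 promoters of the same length. The E-box alone was in 6.42% of all promoters and again in that of Ctsd only among the 9. In the Ctsd promoter a TCACGTG on the gene's own strand begins at position −11, counted from the start. GAGGAA was found in the promoters of 7 of the 9 genes (not those of Ctsd and Ctsl), against 27.6% of all promoters. Ctss held it at position −15, Ctsz at −73, and Ctse at −53 and −6. These matches describe letters in a window and were not tested. Ctsk and Ctss are neighbours on the reference, with 2 annotated genes between them.

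Signal levels are given as log2 intensity minus the 75th percentile of the array, so that 0 is the level of a bright probe, and levels of different genes are not compared. A gene rose or fell when its limma p, adjusted by Benjamini and Hochberg over all 25448 probes and genes tested, was under 0.05. Values with ± are means with SD for levels (n = 3 animals) and log2 differences with SE for comparisons. Spots well above background made up 73.5% to 77.1% of each array. On the second principal component of all genes 1 animal of each age stood apart (aged replicate 3 at 26.39, middle-aged replicate 3 at 16.08, young replicate 2 at 24.28, and the other 6 animals at −19.02 to 3.56), so counts are also given without these 3. The arrays lay on 3 slides. Slide 1 held the young animals and only 1 middle-aged animal (replicate 1). Slide 2 held middle-aged and aged animals, and only slide 3 held all 3 ages (1 animal each). Of the markers that define the catecholamine neurons of the RVLM, Th, Dbh, Slc18a2, Ddc and Phox2a were well above background on all 12 arrays, while Slc6a2 did not pass the filter on dim probes.

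Between 24 and 3 months, 3 of the 10 cathepsins rose and 0 fell. They were Ctse, an aspartic protease of endosomes, by 3.29-fold, Ctss, a cysteine protease that stays active at neutral pH and trims the invariant chain of MHC class II, by 1.99-fold, and Ctsz, a carboxypeptidase, by 1.87-fold. Over all genes and probes tested, 1.57% rose and 2.04% changed in either direction. The median difference of the 10 cathepsins was 0.32 on the log2 scale, against 0.03 over everything tested. The other 7 genes did not pass, although 8 of the 10 had an unadjusted p under 0.05, against 15.2% of all. Of the 3 calls, those of Ctss and Ctsz were known from an earlier analysis of these same arrays. Leaving out 1 animal at a time ended none of the 3 calls, but without the 3 animals that stood apart, 0 of 10 cathepsins and 55 of all genes and probes passed, and the differences were 1.66 for Ctse (adjusted p = 0.0688), 0.90 for Ctss (adjusted p = 0.111) and 1.04 for Ctsz (adjusted p = 0.0649).

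**Figure D1:**
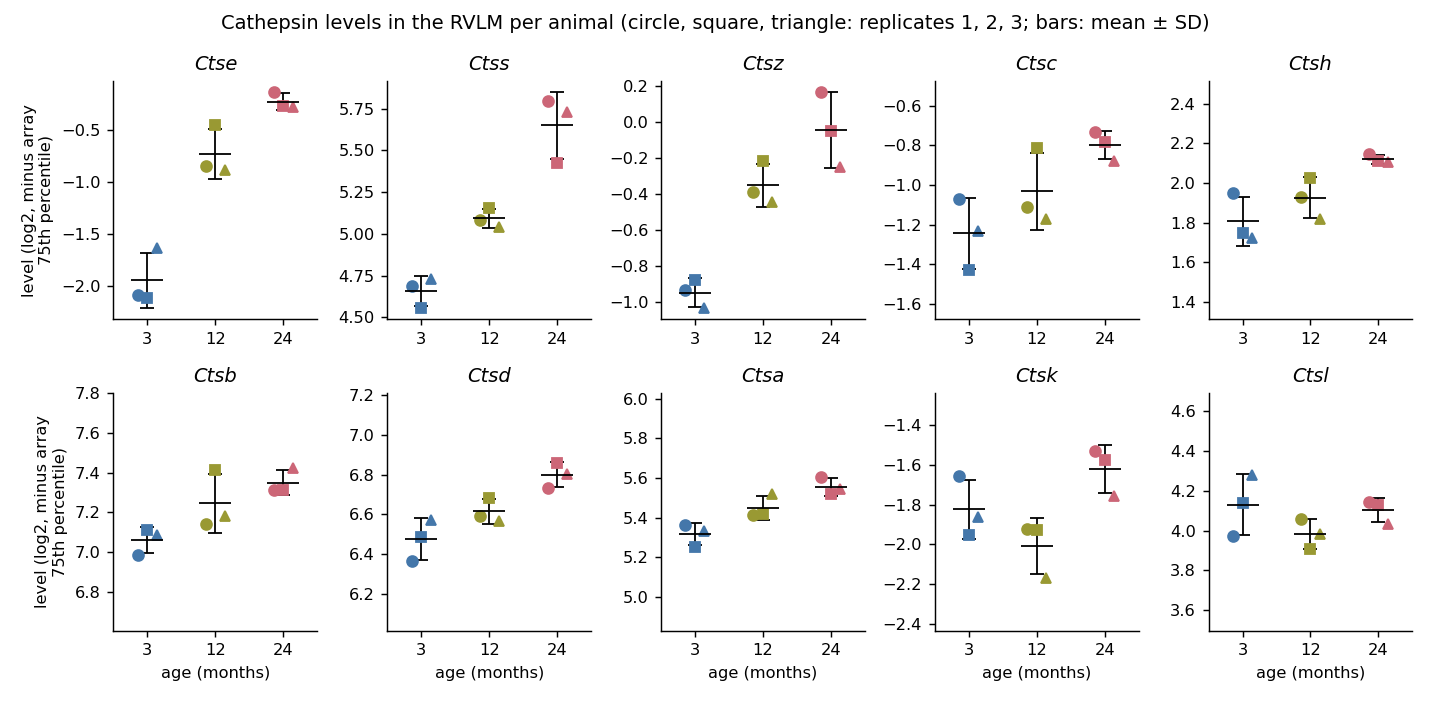
Signal level of each cathepsin (y axis, log2 minus the array's 75th percentile, with a separate range in each panel) against age in months (x axis). Circles, squares and triangles are replicates 1, 2 and 3, and bars are the mean ± SD of 3 animals. In 8 of the 10 panels the means stand in the order of age, and in Ctse, Ctss and Ctsa the 3 ages do not overlap.

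The aspartic cathepsins were Ctse and Ctsd. The level of Ctse was −2.09, −2.11 and −1.63 in the 3 young animals, −0.84, −0.45 and −0.88 in the 3 middle-aged animals and −0.13, −0.27 and −0.28 in the 3 aged animals. The 3 groups did not overlap, and the aged animals were the least spread. The mean was −0.23 ± 0.08 in aged animals against −1.94 ± 0.27 in young animals. The difference of 1.72 ± 0.16 passed the test (adjusted p = 0.0019), with a 95% interval of 2.57-fold to 4.21-fold, and Ctse ranked 30 by p among everything tested. On slide 3 alone the difference was 1.34, and with slide as a block it was 1.57 ± 0.15 (adjusted p = 0.0023).

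Ctsd, the main aspartic protease of lysosomes, measured 6.36, 6.49 and 6.57 in young, 6.59, 6.68 and 6.57 in middle-aged and 6.74, 6.86 and 6.80 in aged animals. All aged animals were above all others, while young and middle-aged animals overlapped. The difference between aged and young animals was 0.32 ± 0.08, which did not pass (adjusted p = 0.0893). It passed under 3 alternatives: with each of the 12 arrays in the fit and animals as random effects (adjusted p = 0.0385), with an intensity trend in the variance prior (adjusted p = 0.0487) and in the authors' scaled values (adjusted p = 0.0435). With slide as a block it was 0.29 ± 0.09 (adjusted p = 0.217), and on slide 3 it was 0.22.

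The cysteine endopeptidases were Ctss, Ctsl, Ctsk and Ctsb, the last of which also cuts dipeptides from C-termini. Ctss measured 4.69, 4.55 and 4.73 in young, 5.08, 5.16 and 5.04 in middle-aged and 5.80, 5.42 and 5.73 in aged animals. The groups were in the order of age without overlap, and aged replicate 2 was the lowest of its group. The mean was 5.65 ± 0.20 in aged animals against 4.66 ± 0.09 in young animals. The difference was 0.99 ± 0.11 (adjusted p = 0.0032), with an interval of 1.68-fold to 2.36-fold. It was 0.98 on slide 3 and 0.95 ± 0.15 with slide as a block (adjusted p = 0.0165). The second Ctss probe gave 0.93 ± 0.11 (adjusted p = 0.0043) in a fit of all kept probes, in which 1.39% of 29797 probes rose.

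Ctsl, a broad cysteine endopeptidase that also processes the invariant chain in some cells, was the member with the smallest difference. It measured 3.97, 4.14 and 4.28 in young, 4.06, 3.91 and 3.98 in middle-aged and 4.14, 4.13 and 4.03 in aged animals, and the 3 groups overlapped. The difference between aged and young animals was −0.03 ± 0.09 (adjusted p = 0.912), with an interval of −0.24 to 0.18. Its sign turned when young replicate 3 (0.0456) or aged replicate 3 (0.0062) was left out. The second Ctsl probe gave −0.15 ± 0.08 (adjusted p = 0.378). At this precision a change of Ctsl as large as that of Ctss or Ctsz lies outside the interval.

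**Figure D2:**
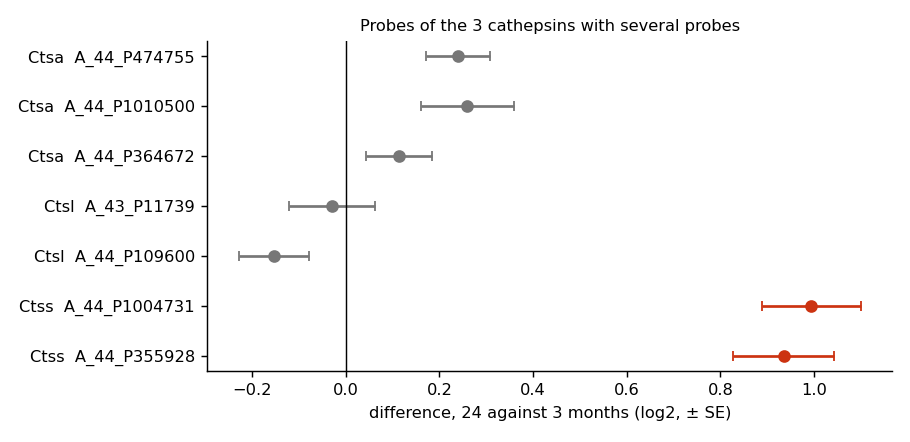
Difference between aged and young animals (x axis, log2, ± SE) of each probe of the 3 cathepsins that have several probes (y axis). Red marks an adjusted p under 0.05 over all kept probes and grey marks the others. Both Ctss probes lie near 1, the 3 Ctsa probes between 0.11 and 0.26, and both Ctsl probes below 0.

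Ctsk, known as the collagen-cutting protease of osteoclasts, measured −1.66, −1.95 and −1.86 in young, −1.92, −1.93 and −2.17 in middle-aged and −1.53, −1.57 and −1.76 in aged animals. Aged animals overlapped with young ones but lay above all middle-aged ones. The difference between aged and young animals was 0.20 ± 0.11 (adjusted p = 0.428). Ctsb measured 6.99, 7.11 and 7.09 in young, 7.14, 7.42 and 7.18 in middle-aged and 7.31, 7.31 and 7.42 in aged animals. All aged animals were above all young ones, with a difference of 0.29 ± 0.09 that did not pass (adjusted p = 0.182).

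The cysteine exopeptidases were Ctsz, Ctsc and Ctsh. Ctsz, which removes single residues from C-termini, measured −0.93, −0.87 and −1.03 in young, −0.39, −0.22 and −0.44 in middle-aged and 0.17, −0.05 and −0.25 in aged animals. All aged and middle-aged animals were above all young ones, and aged replicate 3 fell within the range of the middle-aged group. The mean was −0.04 ± 0.21 in aged animals against −0.95 ± 0.08 in young animals. The difference was 0.90 ± 0.12 (adjusted p = 0.0059), with an interval of 1.56-fold to 2.24-fold. It was 0.81 on slide 3 and 0.90 ± 0.12 with slide as a block (adjusted p = 0.0104).

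Ctsc, the dipeptidyl peptidase that activates serine proteases of immune cell granules, measured −1.07, −1.43 and −1.23 in young, −1.11, −0.81 and −1.17 in middle-aged and −0.73, −0.78 and −0.88 in aged animals. Aged animals were all above young ones and overlapped with middle-aged ones. The difference between aged and young animals, 0.45 ± 0.12, was the largest among the 7 that did not pass (adjusted p = 0.126). Ctsh, an aminopeptidase, measured 1.95, 1.75 and 1.72 in young, 1.93, 2.02 and 1.82 in middle-aged and 2.14, 2.11 and 2.10 in aged animals. Its aged animals were above all others, and its difference of 0.31 ± 0.09 did not pass (adjusted p = 0.131).

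Ctsa, the serine carboxypeptidase that also protects the glycosidases Neu1 and Glb1 in a complex, measured 5.36, 5.25 and 5.33 in young, 5.41, 5.42 and 5.52 in middle-aged and 5.61, 5.52 and 5.55 in aged animals. The ages did not overlap, although the gap between the highest middle-aged and the lowest aged animal was small. The difference between aged and young animals was 0.24 ± 0.07 (adjusted p = 0.146). The other Ctsa probes gave 0.26 ± 0.10 and 0.11 ± 0.07, and neither passed. The larger of these values is from a probe whose 2 arrays of middle-aged replicate 3 differed by 0.75, the widest gap among member probes, against a median gap of 0.03 between both arrays of 1 animal. Middle-aged arrays do not enter the value of that difference. The same probe's arrays of young and aged replicate 3 differed by 0.02 and 0.03.

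In 8 of the 10 cathepsins every aged animal was above every young one, with Ctsk and Ctsl as the exceptions, against 14% of everything tested. Aged replicate 1 was the highest of the 9 animals in 7 genes, and young replicate 2 the lowest in 4. How often these animals were the extremes over everything tested was not counted.

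**Figure D3:**
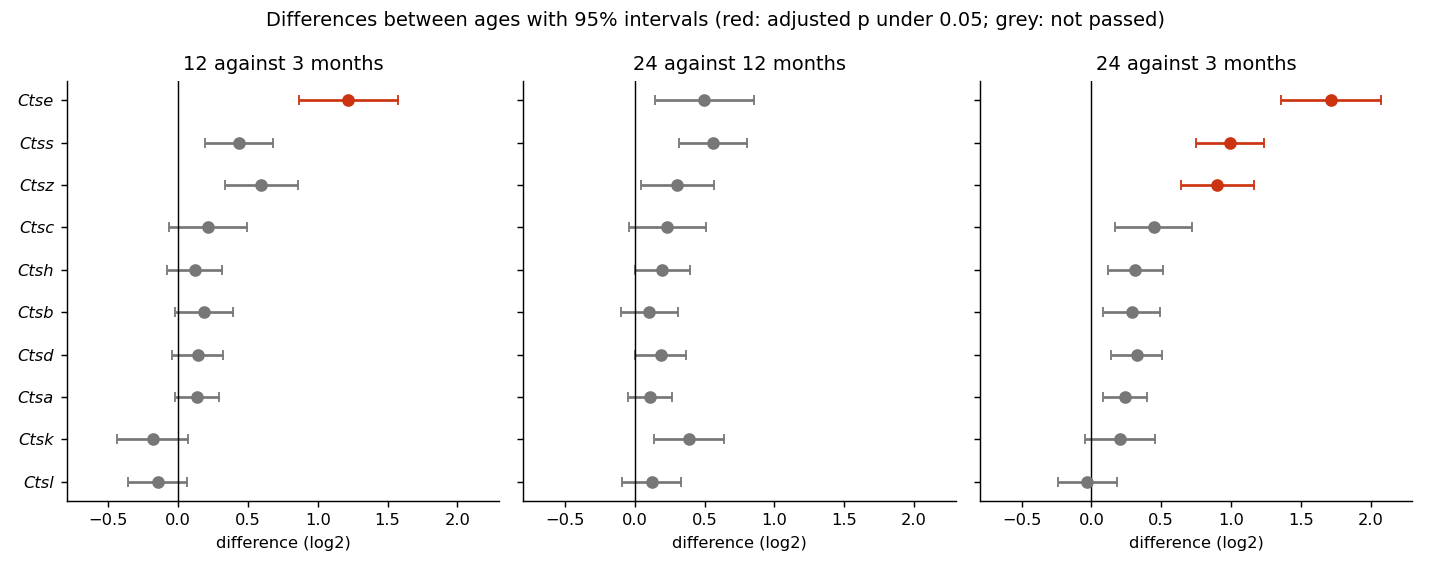
Differences between ages for each cathepsin (x axis, log2, with 95% intervals) for 12 against 3 months, 24 against 12 months and 24 against 3 months. Red marks an adjusted p under 0.05 and grey marks the others. Ctse is red for 12 against 3 and for 24 against 3 months, Ctss and Ctsz only for 24 against 3 months, and no gene is red for 24 against 12 months.

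The interval in which these differences arose was examined next. Between 12 and 3 months, Ctse was 1.22 ± 0.16 higher in middle-aged animals (2.33-fold, adjusted p = 0.0347) and was the only cathepsin of the 10 to pass. Over everything tested, 0.161% rose and 0.2% changed in this comparison. Ctss (0.44 ± 0.11, adjusted p = 0.273) and Ctsz (0.60 ± 0.12, adjusted p = 0.141) had no call. Unadjusted p of the limma fit was under 0.05 for 3 of the 10, against 6.36% of all. The difference of Ctse was 1.11 on slide 1 and 0.69 on slide 3, each resting on 1 middle-aged animal. It was 1.12 ± 0.14 with slide as a block (adjusted p = 0.0294). The call depended on nearly every animal. It passed without young replicate 3 (1.37, adjusted p = 0.0491) but not without young replicate 1 or 2, any 1 middle-aged replicate or any 1 aged replicate, where the difference was 1.08 to 1.30 and adjusted p 0.0600 to 0.121.

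Between 24 and 12 months, 0 of the 10 cathepsins passed limma's adjusted test, and 0.0118% of everything tested did. Unadjusted p was under 0.05 for 5 of them, against 10.7% of all, and all 10 differences were positive, against 55.3% of all. The largest were Ctss, at 0.56 ± 0.11 (adjusted p = 0.184), Ctse, at 0.50 ± 0.16 (adjusted p = 0.352), and Ctsk, at 0.39 ± 0.11 (adjusted p = 0.315). On slide 2 these were 0.51 for Ctss and 0.44 for Ctse, and on slide 3 they were 0.70 and 0.65.

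Whether the later step differed from the earlier one was tested as a contrast of its own. No cathepsin passed limma's adjusted test, and 0% of everything tested did. At an unadjusted p under 0.05 there were 2 of 10, against 5.18% of all. The later step of Ctse was smaller than the earlier one by 0.72 ± 0.27 on the log2 scale (a contrast of −0.72, adjusted p = 0.920), and that of Ctsk was larger by 0.57 ± 0.19 (adjusted p = 0.919). The contrast was 0.12 ± 0.18 for Ctss and −0.29 ± 0.20 for Ctsz. The moderated F test for any difference among the 3 ages was passed by the same 3 genes, Ctse (adjusted p = 0.0055), Ctss (adjusted p = 0.0107) and Ctsz (adjusted p = 0.0172), and by 1.15% of everything tested. Ctsz did not pass it without young replicate 1 (adjusted p = 0.0701), young replicate 2 (0.0638), young replicate 3 (0.0962) or aged replicate 2 (0.0622), nor with no filter on dim probes (0.0568).

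The genes with the most similar profiles over the 9 animals were sought among 12170 named genes by Pearson's r. These are descriptions, since the animals share the age groups and the array scaling. For Ctse they were Acp5, a tartrate-resistant acid phosphatase (r = 0.978), Rai14 (0.978) and Qdpr, a dihydropteridine reductase (0.977). For Ctss they were Ltc4s, the leukotriene C4 synthase (0.989), Fcrl2, an Fc receptor-like gene (0.989), and Grn, which encodes progranulin (0.986). For Ctsz they were the leukocyte receptor Lilrb2 (0.987), the fractalkine receptor Cx3cr1 (0.981) and the macrophage surface gene Adgre1 (0.980). All 9 of these genes passed the test between aged and young animals, with differences of 0.60 (Qdpr) to 2.49 (Fcrl2). They were picked for likeness to members that had passed that same test, so this is no separate support.

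The other genes of the endolysosome were counted in the same way between 24 and 3 months, against the 1.57% of everything tested that rose, and 0 of them fell. Among 30 lysosomal hydrolases and activators tested, 3 rose, among them Acp5 by 1.33 ± 0.13 (adjusted p = 0.0021) and the sterol carrier Npc2 by 0.67 ± 0.09 (adjusted p = 0.0071). The median of the 30 was 0.09. Among 14 lysosomal membrane genes 1 rose, Cd68, a macrophage sialomucin, by 1.19 ± 0.14 (adjusted p = 0.0040), and the median was −0.04. Of 17 subunits of the vacuolar ATPase, which acidifies lysosomes, 0 passed limma's test, with a median of −0.04. Of 13 genes of sorting and biogenesis, with mannose 6-phosphate receptors and Tfeb among them, 0 passed, with a median of −0.06. The counts for hydrolases and membrane genes were also 3 and 1 without any single animal, and 1 and 0 without the 3 animals that stood apart. Ctsf and Ctsq, the other cathepsins tested, did not pass (−0.02 ± 0.08 and 0.25 ± 0.23).

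Among other lysosomal peptidases 1 of 7 rose, Napsa, an aspartic peptidase, by 1.59 ± 0.26 (adjusted p = 0.0207), and the median of the 7 was 0.13. Its call was lost with slide as a block (1.31, adjusted p = 0.0572), under normexp (0.57, adjusted p = 0.0981) and when aged replicate 1 (adjusted p = 0.0730) or 3 (0.0566) or young replicate 2 (0.0806) or 3 (0.0878) was left out. Of 4 cathepsin inhibitors tested, 1 rose, Cst3, which encodes cystatin C, by 0.49 ± 0.08 (adjusted p = 0.0192), and the median was 0.20. The Cst3 call was lost with slide as a block (0.44, adjusted p = 0.102) and when aged replicate 1 or 3 or any 1 young replicate was left out (adjusted p = 0.0594 to 0.0724). Of the 6 granule proteases tested that Ctsc can activate, 0 passed, with differences of −0.88 (Tpsb2) to 1.32 (Gzma) and a median of 0.20. With slide as a block 1 of them passed, Gzma, a granzyme of cytotoxic lymphocytes that was well above background on 7 arrays (2.43, adjusted p = 0.0143, against 1.32 ± 0.34 and adjusted p = 0.102 without the block).

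The MHC class II pathway, in which Ctss trims the invariant chain Cd74, had 2 of 7 genes that rose. They were the class II gene RT1-Ba, by 1.69 ± 0.32 (adjusted p = 0.0372), and Ifi30, a thiol reductase of endosomes, by 0.58 ± 0.09 (adjusted p = 0.0174). The median of the 7 was 1.90, the highest among the lists examined, with a wide spread: the list's median in single animals was 1.28 to 2.75 above the young mean in aged animals, against −0.80 to 0.73 in young animals. Cd74 itself missed the threshold at 2.06 ± 0.43 (adjusted p = 0.0511). Blocking on slide left 1 call. Leaving out 1 animal left 4 calls (young replicate 1), 0 calls (young replicate 2 or 3, or aged replicate 1) or 1 call (any of the other 5), and RT1-Ba itself passed only when aged replicate 3 was the animal left out (otherwise adjusted p = 0.0521 to 0.101). The RT1-Ba call was also lost under normexp (0.75, adjusted p = 0.0593), quantile scaling (adjusted p = 0.0552) and the deposited score (0.0539). It was lost too with no filter on dim probes (adjusted p = 0.0917) and with only the groups compared (0.105).

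**Figure D4:**
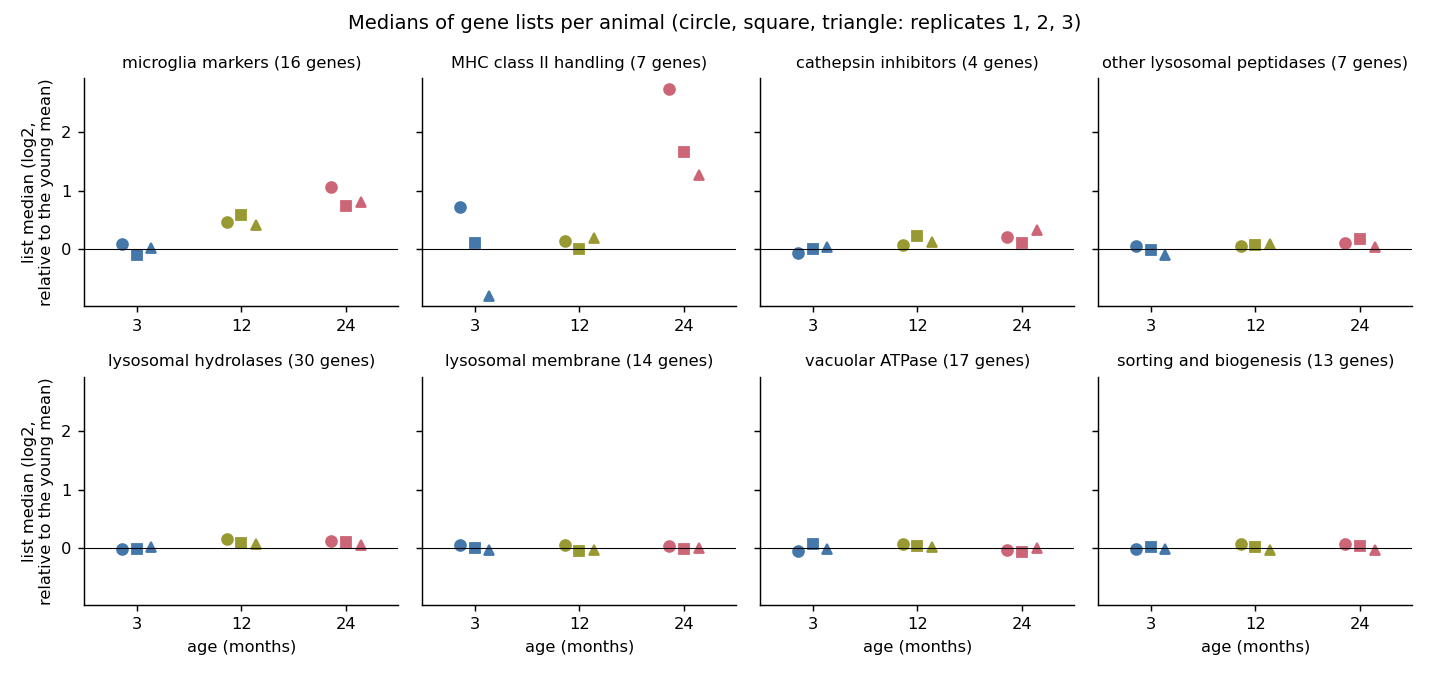
Median of each gene list in each animal (y axis, log2 relative to the mean of the young animals) against age in months (x axis). Circles, squares and triangles are replicates 1, 2 and 3. Microglia markers lie 0.74 to 1.06 above the young mean in aged animals and MHC class II genes 1.28 to 2.75, while the vacuolar ATPase and sorting lists lie within 0.08 of it at every age.

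Markers of microglia were counted in the same way, against the 1.57% of everything tested that rose. Of 16 tested, 12 rose between 24 and 3 months, with Fcrl2 at 2.49 ± 0.21, Trem2 at 1.82 ± 0.12, Tyrobp at 1.38 ± 0.11 and P2ry12 at 1.19 ± 0.11 as the largest differences, and the median was 0.79. All 16 were well above background on all 12 arrays. The median of the list, set against the mean of the young animals, lay at −0.10 to 0.10 in young, 0.41 to 0.58 in middle-aged and 0.74 to 1.06 in aged animals. The log2 of the summed signal was 6.61 to 6.83 in aged animals, against 5.57 to 5.74 in young animals. Blocking on slide left 9 calls, and 1 was left without the 3 animals that stood apart. In a bulk punch more microglia and more RNA per microglial cell cannot be told apart, and the part of these markers in the differences of the cathepsins was not tested.

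Other cell types were examined in the same way. Of 6 markers of perivascular macrophages, monocytes and neutrophils, 2 rose, Pf4 by 0.96 ± 0.19 (adjusted p = 0.0388) and Lyve1 by 0.82 ± 0.10 (adjusted p = 0.0046), with a median of 0.89. The log2 of their summed signal was 0.11 to 0.71 in aged animals, against −0.70 to −0.33 in young animals. The Pf4 call was lost with slide as a block (adjusted p = 0.0896) and without any single animal other than middle-aged replicate 2, where adjusted p was 0.0526 to 0.134, and the Lyve1 call was lost when all its probes were averaged (0.65, adjusted p = 0.108). Of 6 lymphocyte markers 1 rose, Cd6 by 1.25 ± 0.14 (adjusted p = 0.0037), and the median was 0.42. The log2 of their summed signal was 0.90 to 1.08 in aged animals, against −0.07 to 0.17 in young animals. Cd6 carried most of that sum, at 0.59 ± 0.16 in aged and −0.66 ± 0.20 in young animals. The other 5, none of which passed, were Gzma at 1.32 ± 0.34 (adjusted p = 0.102), Nkg7, a granule gene of cytotoxic cells, at 0.54 ± 0.13 (adjusted p = 0.0896), and the T cell genes Cd3d, Cd3g and Lck at 0.14 to 0.29. The count was 2 with slide as a block, where Gzma passed too, and 2 without middle-aged replicate 2. Markers of red blood cells, of which 0 of 5 passed, had a median of 0.87 and a log2 summed signal of 6.78 to 7.31 in aged animals, against 6.11 to 6.64 in young animals. The part of blood and blood-borne cells in the cathepsin values was not tested.

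Of 10 oligodendrocyte markers 1 fell, and the median was −0.39. The count was 0 when any 1 aged or young replicate was left out. Of 10 astrocyte, 10 neuron, 6 catecholamine neuron and 10 endothelial or pericyte markers, 0 passed, with medians of −0.02, −0.03, −0.31 and −0.18. Markers of fibroblasts and osteoclasts, where Ctsk is best known, had 0 of 7 passed and a median of −0.47.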

How the data were processed

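Intensity values were deposited by the authors from Agilent Feature Extraction 9.5.1.1 (per the submitters' processing notes), detrended spatially and multiplicatively per the file headers, on build rn3, with no scaling between arrays. The deposited series matrix holds a score per feature (mean 0 and SD 1 within each array, r = 1 with the log2 signal). Its log base is unknown. Because the score is scaled within each array, its differences are in units of that SD.

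Outlier spots were masked, signals were taken as log2 minus each array's 75th percentile, and both arrays of replicate 3 were averaged. A filter kept 29797 of 41012 probes: those bright enough (flagged well above background) on all arrays of 1 or more ages. The brightest kept probe stood for each gene, and unnamed probes stayed as items of their own (25448 items, 14115 with a name). Probes were named through RefSeq by accession (10735 and 67 probes), symbol (5563) or synonym (3719), or kept the array's own name (3322), and 17606 had none. limma 3.58.1 (R 4.3.3) fitted the 3 age means over 9 animals, with 2.637 prior degrees of freedom, and was tested on simulated data. The simulated noise was independent between genes and animals and held no slide effect, so it is no check of the calls reported here. Tests are two-sided, and their precision is limited by how many animals there were.

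The 10 genes, the gene lists and the tests were chosen with earlier results of these data known. In lists other than the members, genes that passed are named, largest difference first, up to 4, except a few that are not reported here. Ctsf, Ctsq, Cd74, Gzma, Tpsb2 and the lymphocyte markers other than Cd6 were named after their values were seen. For members that passed the F test the 3 genes most alike are given. Alternatives were slide as a block, all arrays with animals as random effects, normexp background correction (offset 50), quantile and median scaling, the deposited score, other filters on dim probes, the mean of a gene's probes, an intensity trend, only the groups compared, the first array of replicate 3, the replicate number as a block, each animal left out and, added after seeing the data, the 3 animals that stood apart left out. The median difference of everything tested between 24 and 3 months was 0.0326 here and −0.00936 to 0.00413 under quantile, median and normexp settings.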

Additional observations from a re-analysis of the deposited data

How the results depend on the processing

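Of 23 refits, 22 kept the calls of Ctse, Ctss and Ctsz between 24 and 3 months; the exception left out the 3 animals that stood apart (2 animals per age), with counts of 0 between 24 and 3 months, 0 between 12 and 3 months and 0 for the F test. Over these alternatives and slide 3 alone, on the log2 scale, the difference was 1.34 to 1.87 for Ctse, 0.90 to 1.11 for Ctss and 0.78 to 1.04 for Ctsz. The count of 1 between 12 and 3 months became 0 with no filter on dim probes, with only the groups compared and, over single animals left out, 0 to 1; the cause was not tested. Ctsl, at −0.03 between 24 and 3 months, ranged from −0.108 to 0.0456 without 1 animal and turned positive in the deposited score (0.0023 SD), without the 3 animals that stood apart (0.012) and without aged replicate 3 (0.0062) or young replicate 3 (0.0456). Deviations of same-numbered animals from their age means correlated at −0.0785 to 0.199 (replicate 1), −0.194 to 0.0564 (replicate 2) and −0.409 to 0.369 (replicate 3). Animals of different numbers were not compared, so these values cannot decide whether replicate numbers pair the animals. With the replicate number as a block 3 cathepsins passed between 24 and 3 months, 3 in the F test and 0 between 12 and 3 months (Ctse, adjusted p = 0.145). Everything passed between 24 and 3 months numbered 520, but 320 with slide as a block, 309 under normexp, 289 without a filter, 343 with only the groups compared and 271 to 510 without 1 animal. Between 12 and 3 months it numbered 51, and 2 to 75 over all alternatives; the F test gave 293, and 182 with slide as a block. Signal over background limited none of the 14 member probes.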
